A study of Mus musculus with 10 samples.

Results

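Cytosolic ribosomal protein genes encode the proteins of the ribosome that translates nuclear-encoded mRNA. They were taken as every gene in the deposited expression table whose symbol was Rpl or Rps followed by a digit, or Rpsa, Rplp0, Rplp1 or Rplp2. Symbols of annotated ribosomal pseudogenes (-ps, 29 symbols) and of the S6 kinases (Rps6k, 9 symbols) were left out. The rule gave 88 of 16154 genes, 37 with Rps names (small subunit) and 51 with Rpl names (large subunit), spread over 19 chromosomes. The name rule also took in Rps19bp1, which encodes a protein that binds Rps19 and is not itself part of the ribosome, and 4 genes that the annotation lists as processed pseudogenes (Rps3a2, Rps3a3, Rpl6l and the transcribed Rps4l).

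Polyadenylated RNA was sequenced from alveolar type II (ATII) cells sorted from the lungs of C57BL/6 mice aged 8 to 10 weeks. ATII cells are the surfactant-producing epithelial cells of the alveolus. The 5 wild type libraries, numbered 2 to 6, were compared with 5 knockout libraries, numbered 1 to 5, from mice lacking HOIL-1L, encoded by Rbck1, one of the subunits of the linear ubiquitin ligase. The labels give the knockout genotype as HOIL-1L -/-. The design text instead describes floxed HOIL-1L with Cre under the SPC (surfactant protein C) promoter. The sources used here do not settle which applies. Each title carries its own mouse number, and no treatment is listed for either group. The meaning of the letter N in the titles is not given, and the p-values measure the spread between these libraries.

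Ribosomal protein mRNAs are among the most abundant in most cells, and their products assemble with ribosomal RNA in fixed proportions. Many of these mRNAs begin with a cytosine followed by a run of pyrimidines, the 5′ terminal oligopyrimidine (TOP) motif, through which mTORC1 and the protein Larp1 control their translation. In ATII cells the ribosomes supply the surfactant proteins.

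The start sites are shown because the TOP run is the sequence feature that the family is known for. Promoters were available for 64 of the 88 genes (RefSeq, GRCm38.p6). A C at the annotated start followed by at least 4 pyrimidines stood at a start of 14 of these 64 genes (21.9%), against 3.01% of all genes in the same promoter collection. Each line below runs from 10 bases before the start to the 20th base of the transcript, with the pyrimidine run in capitals.

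Rps6, chr4:86857348-86857377, minus strand: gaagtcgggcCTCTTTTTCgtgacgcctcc

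Rps27, chr3:90213629-90213658, minus strand: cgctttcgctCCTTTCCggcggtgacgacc

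Rps27rt, chr9:114982720-114982749, minus strand: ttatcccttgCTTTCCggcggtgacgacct

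Rps18, chr17:33955646-33955675, minus strand: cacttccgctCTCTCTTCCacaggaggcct

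Rpl15, chr14:18270967-18270996, minus strand: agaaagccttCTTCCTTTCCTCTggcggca

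Rpl28, chr7:4792955-4792984, plus strand: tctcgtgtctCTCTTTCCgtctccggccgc

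Rplp2, chr7:141447641-141447670, plus strand: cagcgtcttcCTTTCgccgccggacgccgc

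Among the 14 genes the run was 5 bases long in Rplp2 and 13 in Rpl15, the shortest and longest shown here. The next 3 genes, the paralog of Rps27, the paralog of Rpl22 and the Rps19-binding protein, had no such run at the annotated start.

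Rps27l, chr9:66946076-66946105, plus strand: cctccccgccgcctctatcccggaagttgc

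Rpl22l1, chr3:28805498-28805527, plus strand: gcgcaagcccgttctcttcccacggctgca

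Rps19bp1, chr15:80264287-80264316, minus strand: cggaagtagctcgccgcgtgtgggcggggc

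Annotated starts can lie a few bases off the true ones. With a run allowed to begin within 5 bases of the annotated start, a wider search chosen after the sequences had been seen, 46.9% of the 64 genes and 21.2% of all genes had one. By this wider search Rps27l and Rpl22l1 also had a run, beginning just after the annotated start, whereas Rps19bp1 had none. A run exactly at the annotated start was also missing in Rps3, Rpl5 and Rplp0, so its absence does not set the paralogs apart. The start windows describe letters only and carry no measurement of translation.

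Upstream, the ETS factor core CCGGAAG was found on either strand in the 300 bases around the start (250 before and 50 after) of 26 of the 64 genes (40.6%), against 9.93% of all genes. The YY1 core AAGATGG was found in 10 (15.6%), against 7.28%. Matches were counted without regard to overlap with other motifs. Rps6 and Rps21 are shown as examples of the ETS core in the 100 bases before the start, with the matches in capitals. Rps21 held the core at 2 places.

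Rps6, chr4:86857368-86857467, minus strand: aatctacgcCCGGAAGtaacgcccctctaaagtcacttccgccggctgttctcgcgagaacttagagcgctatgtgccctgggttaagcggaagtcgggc

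Rps21, chr2:180257279-180257378, plus strand: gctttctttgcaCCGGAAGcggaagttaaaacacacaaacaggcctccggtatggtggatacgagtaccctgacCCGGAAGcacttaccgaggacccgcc

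Before the results, 2 libraries have to be set apart. Rbck1 was at 29.7 per M in the library labelled wild type 2, against 56.1 to 57.8 in the other wild type libraries, and at 59.3 in the library labelled knockout 1, against 29.8 to 38.8 in the other knockout libraries. Here per M means the deposited normalised count divided by 1 constant for the whole table (7.14, within the range of the column totals in M), so values are close to parts per M of a library. Both libraries go against their labels, so differences are given over all 10 libraries as labelled and over the 8 that remain without these 2. From Xist and Y-linked genes, wild type 2 and knockout 2 and 3 were female and the rest male, so that over the 8 libraries all 4 wild type were male and 2 of the 4 knockout were female. Column totals of the table ranged from 6.94 to 7.43 M. With the lowest values of a library taken as 1 read, the depth was roughly 7.69 to 13.2 M reads. That depth is uncertain, since only 23.0% to 32.3% of low values were whole reads (within 0.1) on this scale. By mouse number the libraries form 2 runs. The first run holds wild type 2 and 3 and knockout 1, 2 and 3. The second holds wild type 4, 5 and 6 and knockout 4 and 5. What the libraries of a run shared is not stated. The 8 ATII markers summed to between 177305 and 212779 per M in wild type and between 176866 and 204222 in knockout libraries, while lymphocyte markers did not exceed 0.297 and red blood cell markers 3.40. Only 2 of the 5 lymphocyte markers and 0 of the 3 neutrophil markers were among the genes with values, so neutrophils could not be assessed. Other lung cells were represented: club cell markers summed to 4635 to 9179 per M in wild type and 4873 to 9037 in knockout libraries, AT1 markers to 1739 to 2396 and 1837 to 2186, and ciliated cell markers to 171 to 298 and 177 to 245.2. Macrophage and monocyte markers summed to 19.0 to 25.5 and 17.9 to 32.8 (Marco at 0 in 4 libraries and Adgre1 in 3), endothelial markers to 5.34 to 12.6 and 7.41 to 11.5 (Cdh5 at 0 in 9), and fibroblast and smooth muscle markers to 5.62 to 11.1 and 1.47 to 7.96 (Acta2 at 0 in 6). Some lists lay to one side of 0 in the knockout minus wild type difference, although no marker passed the test. The fibroblast list had 4 of 4 tested genes below 0 (median log2 difference -0.73 over 10 libraries and -0.88 over 8). The macrophage list had 3 of 3 above 0 (0.26 and 0.30). Of the ciliated list, 4 of 5 were below 0 over 10 libraries (-0.11) and 5 of 5 over 8 (-0.28), and of the AT1 list 4 of 6 in both (-0.15 and -0.15). Their part in the ribosomal protein differences was not tested.

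Ribosomal protein genes made up 2.17% to 3.05% of each column total. Wild type libraries 2 to 6 held 2.47%, 2.67%, 3.05%, 2.75% and 2.33%, and knockout libraries 1 to 5 held 2.61%, 2.54%, 2.60%, 2.49% and 2.17%. The highest library, wild type 4, and the next to lowest, wild type 6, carried the same label, and the groups overlapped. The means were 2.65% ± 0.276 in wild type and 2.48% ± 0.180 in knockout libraries (SD, n = 5 each), and 2.70% ± 0.296 and 2.45% ± 0.191 over the 8 libraries (n = 4 each). The 5 libraries of the first run lay between 2.47% and 2.67% (SD 0.0760), and those of the second run between 2.17% and 3.05% (SD 0.348). In bulk RNA, fewer cells of a type and less RNA per cell cannot be told apart.

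**Figure D1:**
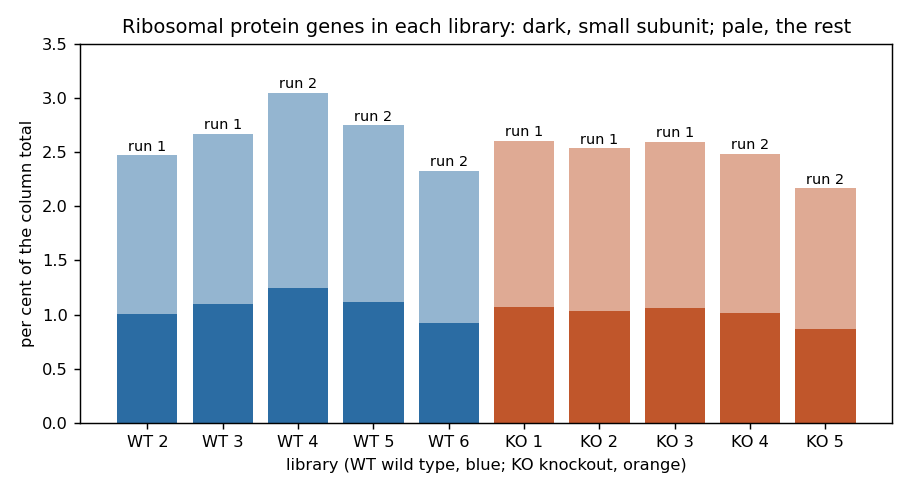
Summed normalised counts of the ribosomal protein genes as a per cent of each library's column total (y axis), by library (x axis, wild type blue, knockout orange; the darker part is the small subunit; run 1 and run 2 are the runs of mouse numbers). Wild type 4 reached 3.05% and knockout 5 was at 2.17%, both in the second run.

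Of the 88 genes, 84 had at least 1 per M in at least 5 libraries and were tested, 35 with Rps names and 49 with Rpl names. The other 4 were close to 0: Rpl39l, the paralog of Rpl39 known from testis, reached at most 0.235 per M, and Rps3a2, Rps3a3 and Rpl6l are the processed pseudogenes. The median mean level of the tested genes was 271 per M, against 19.5 for all 12946 genes tested, and 71 of the 84 exceeded 100 per M, as did 11.3% of all genes tested.

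Per kilobase of exon, a scale on which genes can be ranked, the highest means over the 10 libraries belonged to Rplp1, a protein of the acidic stalk that recruits translation factors (847 ± 91.3 per M per kb, SD, n = 10), and Rps15, at the head of the small subunit (766 ± 77.2). Rplp0, the base of the stalk, followed at 528 ± 58.6. Rplp1 and Rps15 did not differ beyond their spread, and both lay above Rplp0. The lowest of the tested genes were Rpl22l1 at 13.3 ± 2.67, Rps19bp1 at 10.5 ± 1.12 and Rps4l at 9.52 ± 2.50, and all 3 overlapped within their SD. Lengths are unions of all annotated exons, so a gene with long minor transcripts is understated. Reads shared with the many near-identical pseudogenes may have been dropped or divided. The name of the deposited table refers to htseq, but no source used here gives the settings of the counting or its strand setting. Single levels are therefore uncertain.

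The tested genes went up and down together from library to library. Over 3486 pairs the median Pearson r of log2 values across the 10 libraries was 0.88, and 97.7% of pairs were above 0. Of the 84 genes, 67 had r above 0.9 with the mean of the others. The points share libraries and their scaling, and the correlation is a description. The median SD of a gene's log2 value over the libraries was 0.17 (0.19 for all genes tested) and was 0.06 after each library's mean over the family had been removed.

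The mean log2 level of the 84 genes was 7.85, 7.97, 8.17, 7.92 and 7.69 in wild type libraries 2 to 6, and 7.93, 7.83, 7.86, 7.80 and 7.58 in knockout libraries 1 to 5. Wild type 4 was the highest library for 80 of the 84 genes. Knockout 5 was the lowest for 74 and wild type 6 for 7. The median quotient of wild type 4 to knockout 5 was 1.495, with 83 of 84 genes higher in wild type 4 (48.1% of all genes tested). The quotient of wild type 4 to wild type 6, both with the same label, was 1.41.

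Only Rps19bp1 and Rps4l had r under 0.5 with the mean of the others, at -0.31 and 0.21 respectively. Both also stood at the low end of the per-length levels. Rps2, a protein at the mRNA entry channel, and Rps29, a zinc-binding protein of the small subunit head, were next at 0.72 each. The least variable genes were Rpl28, Rpl4 and Rpl7l1, with SDs of log2 value of 0.08, 0.09 and 0.09. The most variable after Rps4l (0.37) were Rpl22l1 (0.31), Rps27 (0.24), Rps12 (0.24) and Rps19 (0.23).

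**Figure D2:**
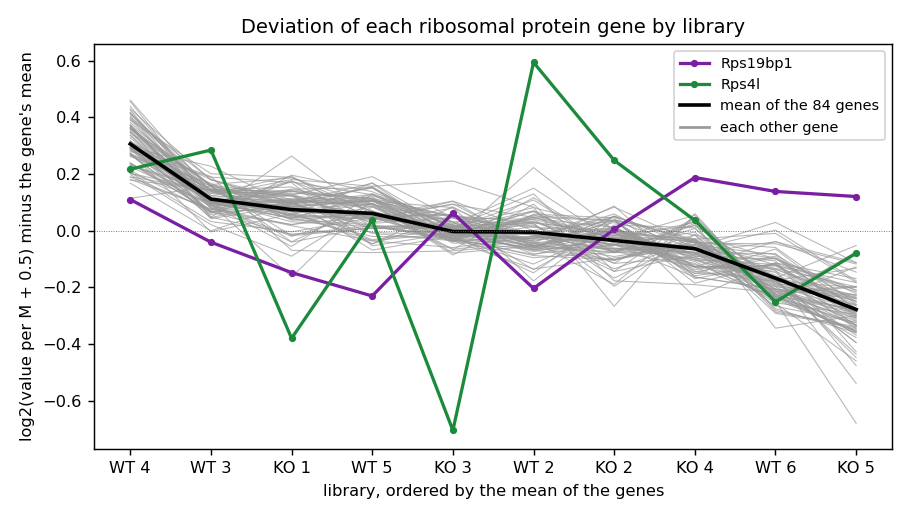
Deviation of each of the 84 tested genes from its own mean over 10 libraries (y axis, log2 units), with libraries ordered by the mean of the genes (x axis). Grey lines are single genes and the black line their mean; the bundle runs from wild type 4 down to knockout 5, and Rps19bp1 and Rps4l depart from it.

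In the knockout libraries the family lay slightly below wild type, and no ribosomal protein gene passed the test. By limma on log2(value per M + 0.5) over the 10 libraries, 0 of the 84 genes reached an adjusted p under 0.05 (Benjamini-Hochberg over 12946 genes), where 0.0% of all genes did. At an unadjusted p under 0.05 1 of the 84 was lower, Rps2 (adjusted p = 0.457 by limma), against 3.28% of all genes. The knockout minus wild type difference was below 0 for 83 of the 84 genes, against 48.7% of all genes tested. The median was -0.12 on the log2 scale, against 0.01 for all genes. The small subunit genes without Rps19bp1 (34) had a median of -0.12 and the large subunit genes (49) one of -0.13. No gene had every knockout library below every wild type library, as 0.633% of all genes did. Since the genes move together from library to library, 83 values of 1 sign are not 83 separate observations.

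Over the 8 libraries the median was -0.16, against 0.00 for all genes, and 83 of 84 genes were again below 0 (49.9% of all genes). By limma, 0 of the 84 reached an adjusted p under 0.05, where 0.402% of all genes did. At an unadjusted p under 0.05, 16 of the 84 (19.0%) were lower in knockout libraries, against 5.25% of all genes tested. Of those 84, the smallest adjusted p in limma was 0.250, for Rpl8, a protein close to the peptidyl transferase centre, with a log2 difference of -0.24. Differences of 1.5-fold or more in either direction lay outside the 95% interval for 83 of 84 genes over 10 libraries and for 82 over 8. The same count was not made over all genes tested. Since the genes move together, these intervals are not separate observations and give no bound for the family as a whole.

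**Figure D3:**
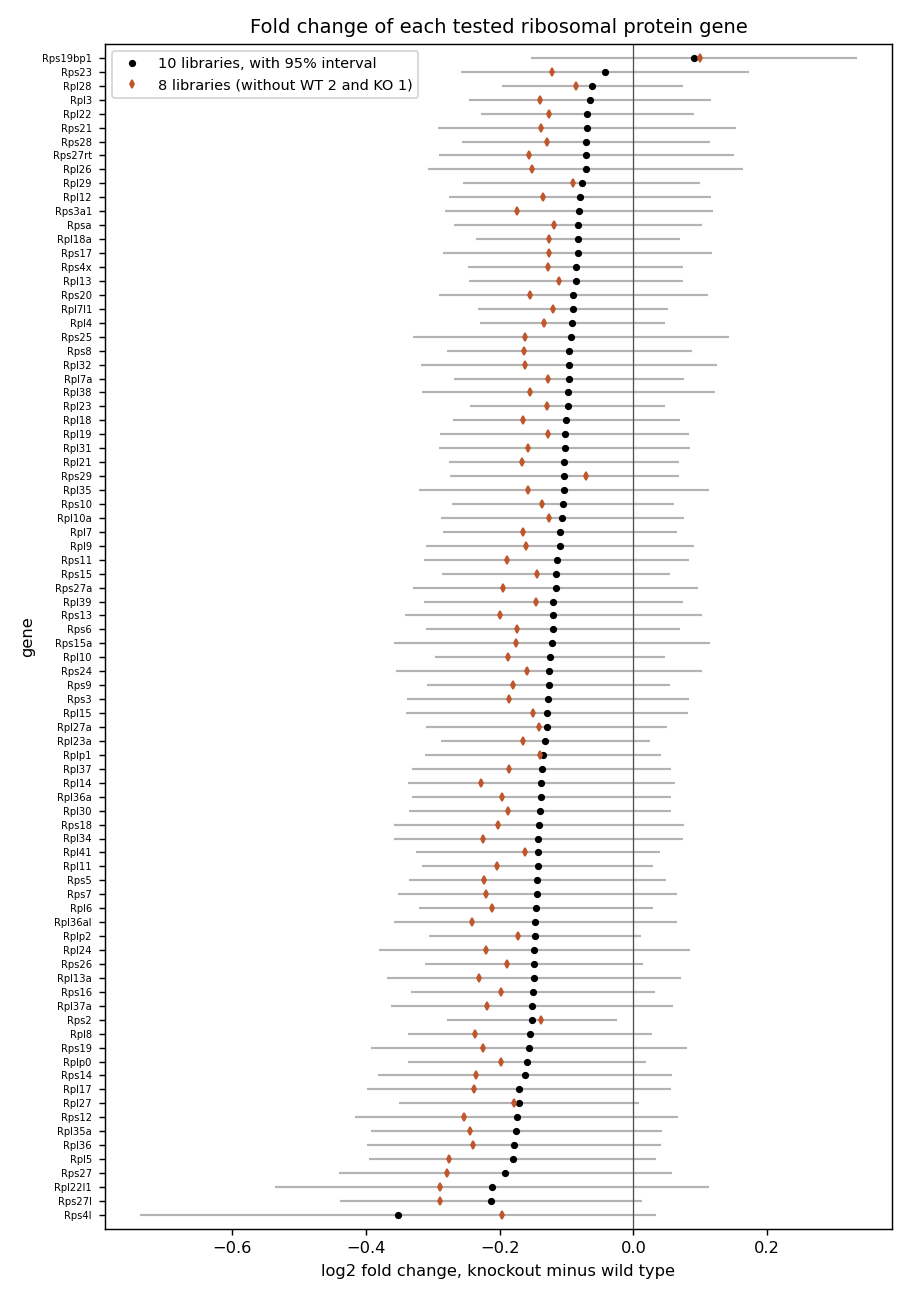
Log2 fold change, knockout minus wild type, of each of the 84 tested genes (x axis; genes on the y axis), over 10 libraries with its 95% interval (black) and over 8 libraries (orange). All but Rps19bp1 lie left of 0, and the interval excludes 0 for 1 gene, Rps2.

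The size of the difference changed when single libraries were left out. It was also larger in the second run of mouse numbers, although no gene of the family passed the test of a difference between the runs. Over 10 libraries the median was -0.06 without wild type 4 and -0.07 without knockout 5, with 79 of 84 genes below 0 in each case (49.2% and 49.0% of all genes), and -0.18 without wild type 6. Over 8 libraries the corresponding medians were -0.10, -0.11 and -0.25. Without wild type 6, 37 genes over 10 libraries (background, lower: 5.18%) and 72 over 8 (7.25%) had an unadjusted p under 0.05, all lower in knockout, whereas without wild type 4 none of the 84 did in either set (2.12% and 3.41%). None of these fits gave a gene of the family with an adjusted p under 0.05; of all genes, 0.0% did in each fit from 10 libraries, and 0.201% without wild type 4, 0.301% without knockout 5 and 0.772% without wild type 6 from 8.

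Within the first run alone the median was -0.03, with 62 of 84 genes below 0 (49.7% of all genes). Within the second run it was -0.24, with 83 below 0 (48.2% of all genes) and 32 at an unadjusted p under 0.05 by limma (background, lower: 4.43%). No gene of the family reached an adjusted p under 0.05 in either run, where 0.0% and 0.317% of all genes did. Leaving out wild type 2 and knockout 1, the first run held 1 wild type and 2 knockout libraries and gave a median of -0.13. The difference between the runs was tested as an interaction over 10 libraries by limma. The smallest adjusted p among the 84 genes was 0.812, where 0.0154% of all genes passed. An unadjusted p under 0.05 was reached by 4 of 84, against 5.92% of all genes, and 79 of 84 terms were below 0, against 49.2%.

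Exon length moved with the family's level. The tested ribosomal protein genes have short transcripts, with a median exon length of 1754.5 bases against 4290.0 for all genes tested. The slope of log2 value on log2 exon length, relative to the mean library, was -0.04, -0.03, -0.07, 0.00 and 0.03 in wild type libraries 2 to 6, and -0.00, 0.00, 0.03, 0.03 and 0.05 in knockout libraries 1 to 5. Wild type 4, where the family was highest, had the most negative slope and knockout 5, where it was lowest, the most positive. With each library's trend on length removed the median was -0.08 over 10 libraries, with 7 genes above 0, and -0.12 over 8, with 2 above 0. The part of length in the difference was not tested further.

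**Figure D4:**
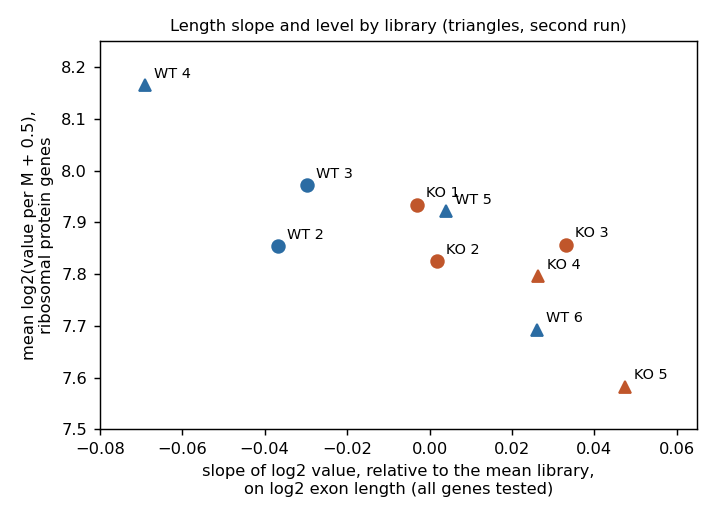
Mean log2(value per M + 0.5) of the 84 tested genes (y axis) against the slope of log2 value on log2 exon length over all genes tested (x axis, relative to the mean library), 1 point per library (wild type blue, knockout orange; circles first run, triangles second run). Wild type 4 stands at the upper left and knockout 5 at the lower right.

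Among small subunit genes, Rps27a is of interest for a linear ubiquitin ligase subunit, since it encodes ubiquitin fused to a ribosomal protein. It stood at 221, 246, 297, 249 and 197 per M in wild type libraries 2 to 6 and at 254, 218, 226, 232 and 182.6 in knockout libraries 1 to 5. The groups overlapped, and the log2 difference was -0.12 ± 0.10 over 10 libraries and -0.19 ± 0.11 over 8 (SE, limma adjusted p = 0.732 and 0.445). Ubb, a polyubiquitin gene, differed by -0.07 and -0.03.

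Rps3, which lines the mRNA entry tunnel and also binds the NF-kB subunit p65, stood at 738, 801, 873, 783 and 611 per M in wild type and 793, 702, 749, 671 and 566 in knockout libraries. Wild type 6 fell among the lower knockout values. The difference was -0.13 ± 0.10 over 10 libraries and -0.19 ± 0.11 over 8 (adjusted p = 0.701 and 0.465 by limma).

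Rps6, the substrate of the S6 kinases, stood at 251, 279, 319, 283 and 232 per M in wild type and 268, 258, 268, 253 and 206 in knockout libraries. Knockout 5 was set apart below its group. The difference was -0.12 ± 0.09 (adjusted p = 0.685 by limma). Rpsa, known also as the laminin receptor precursor, differed by -0.08 ± 0.09, and Rps19, the gene most often mutated in Diamond-Blackfan anaemia, by -0.16 ± 0.11. Rps4x, the X-linked form of its protein, differed by -0.09 ± 0.08, and Rps9, among the highest in values per M not divided by length, by -0.13 ± 0.09. Over the 8 libraries these differences were -0.17 ± 0.10 for Rps6, -0.12 ± 0.10 for Rpsa, -0.23 ± 0.12 for Rps19, -0.13 ± 0.08 for Rps4x and -0.18 ± 0.09 for Rps9.

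Rps2 had the smallest unadjusted p over 10 libraries. It stood at 264, 247, 279, 258 and 237 per M in wild type and 229, 233, 237, 230 and 225 in knockout libraries. Wild type 6 and knockout 3 met at 237, and every other wild type library was above every knockout library. The difference was -0.15 ± 0.06 over 10 libraries and -0.14 ± 0.07 over 8 (limma adjusted p = 0.457 and 0.404).

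Rps4l, the transcribed processed pseudogene, had the most negative difference, -0.35 ± 0.18 (adjusted p = 0.571 by limma). It stood at 13.4, 10.7, 10.2, 8.94 and 7.23 per M in wild type and 6.58, 10.4, 5.15, 8.94 and 8.21 in knockout libraries. Its highest value was in the library labelled wild type 2, and over the 8 libraries the difference was -0.20 ± 0.19. Rps19bp1 was the only one of the 84 above 0. It stood at 9.78, 11.0, 12.3, 9.59 and 12.5 per M in wild type and 10.2, 11.4, 11.9, 13.0 and 12.4 in knockout libraries, and differed by 0.09 ± 0.12 over 10 libraries and 0.10 ± 0.12 over 8 (limma adjusted p = 0.828 and 0.774). The least negative ribosomal protein over 10 libraries was Rps23, at the decoding centre, with -0.04 ± 0.10, and -0.12 ± 0.11 over 8.

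Among large subunit genes, Rpl5 and Rpl11 encode the proteins that form a particle with 5S RNA and can bind Mdm2, the inhibitor of p53. Rpl5 stood at 415, 462, 552, 478 and 400 per M in wild type and 477, 409, 427, 406 and 320 in knockout libraries. The groups overlapped, with the library labelled knockout 1 the highest of its group. The difference was -0.18 ± 0.10 over 10 libraries and -0.28 ± 0.10 over 8 (adjusted p = 0.589 and 0.266 by limma). Rpl11 differed by -0.14 ± 0.08 and -0.20 ± 0.09 over the same sets.

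Rpl4, which reaches into the peptide exit tunnel, was the only tested member whose groups did not overlap over 8 libraries with knockout below, as 2.87% of all genes did. It stood at 693, 751, 847, 759 and 750 per M in wild type and 733, 724, 720, 704 and 679 in knockout libraries, with the library labelled wild type 2 inside the knockout range. The difference was -0.09 ± 0.07 over 10 libraries and -0.13 ± 0.07 over 8 (limma adjusted p = 0.676 and 0.418).

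The 3 stalk genes were close to each other in difference. Rplp0 stood at 913, 938, 1080, 903 and 793 per M in wild type and 912, 828, 864, 799 and 732 in knockout libraries, overlapping between 793 and 912. The differences were -0.16 ± 0.08 for Rplp0, -0.14 ± 0.08 for Rplp1 and -0.15 ± 0.08 for Rplp2 (limma adjusted p = 0.576, 0.624 and 0.563), and over 8 libraries -0.20 ± 0.09, -0.14 ± 0.09 and -0.17 ± 0.09. Rpl10, which joins the subunit last, differed by -0.12 ± 0.08, and Rpl3, at the peptidyl transferase centre, by -0.06 ± 0.09. Rpl13a, which can leave the ribosome to silence mRNAs in interferon-treated cells, differed by -0.15 ± 0.10. Over 8 libraries the differences were -0.19 ± 0.08 for Rpl10, -0.14 ± 0.09 for Rpl3 and -0.23 ± 0.11 for Rpl13a.

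The Rps27 family shows how alike some copies are. Rps27, a zinc-finger protein of the small subunit, and the intronless Rps27rt share all 255 coding bases, so their reads could not be told apart there, whereas Rps27l matches Rps27 at 194 of 255 (76.1%). The first 120 coding bases (GENCODE M21) are given, with the 28 bases where Rps27l differs in capitals.

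Rps27 and Rps27rt: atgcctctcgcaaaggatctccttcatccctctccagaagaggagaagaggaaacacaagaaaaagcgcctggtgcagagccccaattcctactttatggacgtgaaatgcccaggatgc

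Rps27l: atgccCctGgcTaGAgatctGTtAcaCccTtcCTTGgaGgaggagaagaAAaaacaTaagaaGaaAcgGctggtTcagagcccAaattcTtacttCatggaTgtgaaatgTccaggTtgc

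Rps27l, a paralog known as a p53 target, stood at 61.2, 66.0, 75.3, 60.1 and 49.2 per M in wild type and 65.4, 50.7, 54.7, 50.2 and 47.0 in knockout libraries. Wild type 6 lay below 4 of the 5 knockout libraries. The difference was -0.21 ± 0.11 over 10 libraries and -0.29 ± 0.11 over 8 (limma adjusted p = 0.555 and 0.277).

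Rps27 stood at 81.9, 89.8, 103, 85.6 and 71.6 per M in wild type and 91.3, 79.8, 82.0, 72.2 and 55.1 in knockout libraries. Its difference was -0.19 ± 0.12 over 10 libraries and -0.28 ± 0.12 over 8 (adjusted p = 0.624 and 0.344 by limma). Rps27rt, whose level per length cannot be separated from that of Rps27, differed by -0.07 ± 0.10 over 10 libraries and -0.16 ± 0.10 over 8.

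Rpl22l1, the paralog of the RNA-binding protein Rpl22, is 66.9% identical to it in coding sequence. It stood at 27.5, 28.2, 34.8, 28.9 and 21.7 per M in wild type and 29.4, 21.4, 29.3, 27.0 and 16.0 in knockout libraries. Knockout 2 and 5 and wild type 6 were low and the other 7 overlapped. The difference was -0.21 ± 0.15 over 10 libraries and -0.29 ± 0.17 over 8 (adjusted p = 0.676 and 0.469 by limma), and that of Rpl22 was -0.07 ± 0.08 and -0.13 ± 0.08. Rpl36a and Rpl36al (87.9% identical) differed by -0.14 ± 0.09 and -0.15 ± 0.10. Rpl7 and its distant paralog Rpl7l1, which acts on pre-ribosomes (53.0% identical), differed by -0.11 ± 0.08 and -0.09 ± 0.07. Rpl39, at the exit tunnel, differed by -0.12 ± 0.09. Over 8 libraries the differences were -0.20 ± 0.10 for Rpl36a, -0.24 ± 0.10 for Rpl36al, -0.16 ± 0.08 for Rpl7, -0.12 ± 0.08 for Rpl7l1 and -0.15 ± 0.10 for Rpl39.

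**Figure D5:**
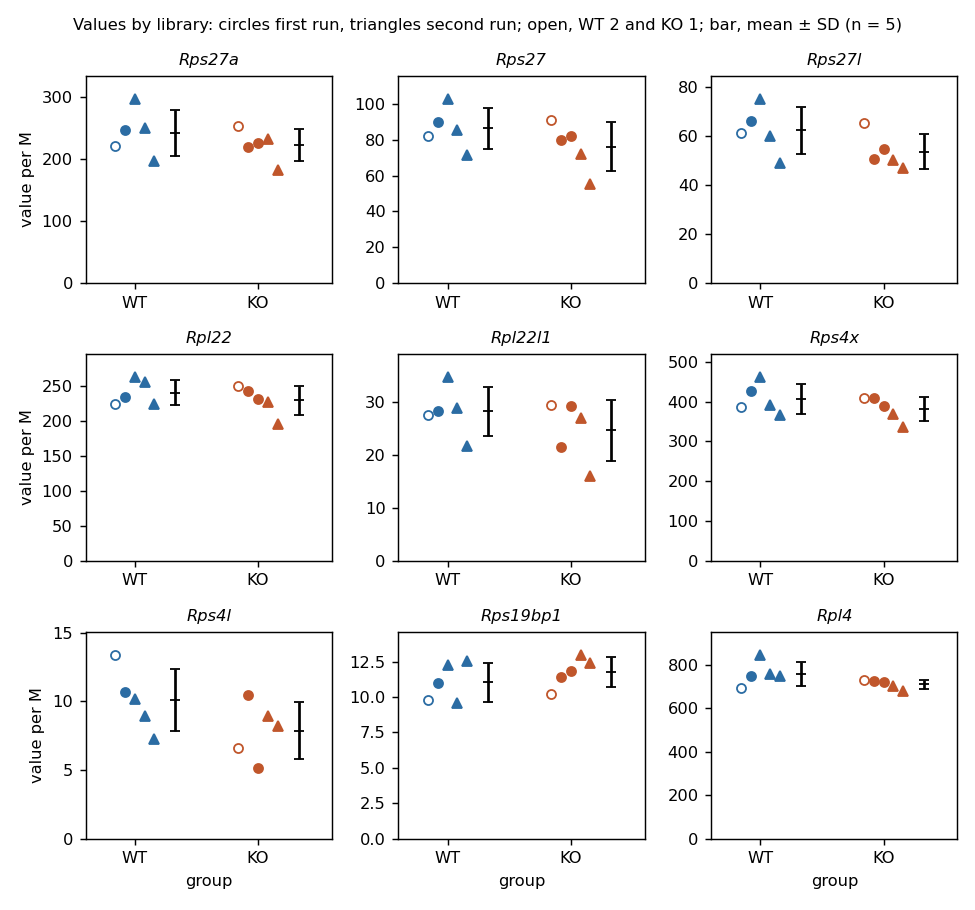
Values per M (y axes, each from 0) in wild type and knockout libraries (x axes) for 9 genes of the family; circles are the first run and triangles the second, open symbols the libraries labelled wild type 2 and knockout 1, and bars the mean ± SD (n = 5). The groups overlap in every panel, and for Rpl4 the overlap comes from the open symbols.

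The genes outside the family most like it, by Pearson r of log2 value with the mean of the 84 genes over 10 libraries among 11574 genes compared, were Naca, a chaperone subunit at the exit tunnel (0.98), Fis1, a mitochondrial fission adaptor (0.98), Rack1, the scaffold protein of the small subunit (0.98), Tmem205 (0.96) and Fau, a ubiquitin-like fusion to a small subunit protein (0.96). In all, 63 genes (0.544%) had r above 0.9. Rack1 differed between the groups by -0.17 ± 0.09 over 10 libraries (limma adjusted p = 0.577) and Fau by -0.14 ± 0.09 (adjusted p = 0.624), and over 8 by -0.23 and -0.18.

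Other genes of the translation machinery were counted over both sets by limma, and in none of the lists did a gene reach an adjusted p under 0.05 in either. Of the elongation factors and other TOP mRNAs, 10 of 13 were below 0 over 10 libraries (median -0.09) and 11 of 13 over 8 (-0.13). Eef1a1, which delivers aminoacyl-tRNA, differed by -0.15 and -0.20. Of the initiation factors, 32 of 39 were below 0 in both sets (medians -0.05 and -0.07). Eif6, which keeps the subunits apart, had the smallest p of these and differed by -0.21 ± 0.07 over 10 libraries (adjusted p = 0.369) and -0.22 ± 0.08 over 8.

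Of the ribosome biogenesis factors, 40 of 57 were below 0 over 10 libraries (median -0.06) and 41 of 57 over 8 (-0.07). Their smallest p was that of Mdn1, a remodelling ATPase, which stood the other way at 0.57 ± 0.15 over 10 libraries (adjusted p = 0.314) and 0.58 ± 0.18 over 8. Of the dedicated chaperones of ribosomal proteins, 11 of 16 were below 0 over 10 libraries (median -0.05) and 9 of 16 over 8 (-0.03). RNA polymerase I and its factors had 11 of 17 (-0.07) and 12 of 17 (-0.08). The snoRNA host genes, many of them TOP transcripts, had 8 of 13 below 0 over 10 libraries (median -0.12) and 9 of 13 over 8 (-0.10).

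The regulators of mTORC1 and TOP mRNAs had 12 of 30 below 0 and a median of 0.03 over 10 libraries, and 16 of 30 below 0 with a median of -0.00 over 8, so the side of 0 turned with the libraries used. Tsc1, a brake on mTORC1, differed by 0.27 and Mtor itself by 0.18 over 10 libraries (limma adjusted p = 0.364 and 0.450). Over 8 libraries Tsc1 and Mtor differed by 0.28 and 0.21. Lamtor4, the next by p over 10 libraries, stood the other way at -0.20 (limma adjusted p = 0.495). Rptor had the smallest p of the list over 8 libraries, at 0.23 (limma adjusted p = 0.250). Mitochondrial ribosomal protein genes, the family nearest in function, had 69 of 76 below 0 with a median of -0.11 over 10 libraries, and 67 of 76 with -0.13 over 8. The cytosolic family had -0.12 and -0.16.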

How the data were processed

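RNA from 10 sorted ATII libraries was analysed from 1 table of normalised counts (a signal without a stated unit), deposited by the authors. Bcl2fastq 2.17, edgeR 3.14.0 and the build mm10 appear in the submitters' processing notes, and the table's name refers to htseq. The aligner, the normalisation method and the strand setting are not stated in what was used here. Low values were whole reads (within 0.1) for 23.0% to 32.3% only, so counts were not recovered and no count test was used. Values were divided by 7.14 and tested as log2(value + 0.5) with limma 3.58.1 (trend; R 4.3.3), two-sided, on the 12946 genes that reached 1 per M in 5 or more libraries, with the Benjamini-Hochberg adjustment. Symbols matched 16026 of 16154 genes. The family and the gene lists were chosen with earlier results of these data known. Named genes were a fixed set of ribosomal protein genes, the extremes in level, difference and SD, up to 3 genes of smallest p per list and the 5 most alike genes; Rps2, Rpl8, Rps15 and the genes with sequences shown were added after their values were seen. The code was tested on simulated data. Alternatives covered pseudocount, filter, scaling, covariates, weights, length and left-out libraries. Protein sequences were not used here; coding bases were compared instead. Columns not used numbered 0.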

Additional observations from a re-analysis of the deposited data

Results flagged for a closer look

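Of 84 group values examined, 5 had 1 library far from the other 4, where chance gives about 1 in 20. In the knockout group, knockout 5 stood low for Rps6 (206 per M, the others 253 to 268), Rpl7l1 (68.2 per M, the others 75.9 to 77.9), Rpl39 (88.3 per M, the others 107 to 112) and the family's share of the column total (2.17%, the others 2.49% to 2.61%). In the wild type group, wild type 6 stood low in the quotient of summed small subunit to summed large subunit values (0.654, the others 0.683 to 0.694). The values of 1 library are not independent of each other, since the genes of the family vary together.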

How the results depend on the processing

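With 10 libraries no gene of the family was called, and the median stayed below 0, under every alternative run except the count with the replicate number as a block, which gave 1 call (Rps27l, log2 difference -0.37, limma adjusted p = 0.0414; 259 of 12946 genes in all). Of those 259 genes, 48 were lower in knockout and 211 higher. With 8 libraries the block gave 12 calls, all lower in knockout (14.3% of the 84). Of all genes 406 were called there, 132 lower (1.02%) and 274 higher (2.12%). The block medians were -0.21 and -0.28. The block also rests on fewer libraries, 4 against 4 and 3 against 3. It leaves out wild type 6, without which the medians were -0.18 and -0.25 with no block. It also leaves out knockout 1 from the 10 libraries and knockout 2 from the 8. Without these the medians were -0.15 and -0.19 with no block. The numbers were not taken as pairs: the correlations of deviations for numbers 2 to 5 were 0.31, 0.03, 0.10 and 0.08, the third just under 0.1, and not every library was most like its own number. Leaving out 1 library gave medians of -0.18 to -0.06 (10 libraries) and -0.25 to -0.10 (8), with 0 calls each time. Over 8 libraries the 16 genes at an unadjusted p under 0.05 became 3 with no filter (1894 of all genes) and 5 with equal column totals (1750). They became 6 with equal totals of the genes outside the family (1734), 6 with the length trend removed (1547) and 9 with library weights (1751). With run as a covariate they became 34 (1904, median -0.20), and over 10 libraries that fit gave 9 (1654, median -0.14). Over 8 libraries they became 43 with sex as a covariate (1501, median -0.25) and 77 with the block (2612). Sex is unevenly spread there, with no female wild type library. Over 10 libraries, 22 of 84 differences lay above 0 in the first run alone and 7 with the length trend removed. Of the genes named by the rule, those that turned were, in the first run alone, Rps6 0.00165, Rpl13a 0.0101, Rpl22 0.0748, Rps27rt 0.0442, Rpl3 0.0732, Rps23 0.0995, Rpl4 0.00814, and with the length trend removed Rps27rt 0.0736, Rps23 0.0274, Rps29 0.00324. Leaving out 1 library, Rps27rt ranged from -0.15 to 0.00195 and Rps23 from -0.11 to 0.0297, highest without knockout 5 and wild type 4 respectively. The cause was not tested. Depth limits Rps4l, Rps19bp1 and the 4 untested genes most.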

Other observations

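Within single libraries the quotient of Rps27l to Rps27 was taken on values not divided by length. It was 0.635 to 0.748 in 9 libraries and 0.853 in knockout 5. Both genes were lowest in that library, Rps27l at 47.0 per M. The quotient of Rps27rt to Rps27, which share all coding bases, was also highest there (1.04). The quotient of Rpl22l1 to Rpl22 was lowest in knockout 5 (0.0815), knockout 2 (0.0882) and wild type 6 (0.0963), and lay between 0.113 and 0.132 in the other 7.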
